A study of Mus musculus with 42 samples.

Results

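The RNA content of mouse embryonic stem cells without Argonaute 2 was compared with that of tagged cells that carry Ago2. The comparison rests on 6 input RNA libraries of the 42 libraries in the series: 3 labelled HA-Tnrc6a with Ago2KO and 3 labelled HA-Tnrc6a, all from the second of the study's experiments. Input RNA is RNA of the cells taken without pulldown on HA beads. The question put to these libraries was whether RNAs held by the silencing protein Tnrc6a rise when Ago2 is lost, and which gene groups change.

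All groups carried the same base line, which the labels give as 129S6/SvEvTac embryonic stem cells with a GFP reporter (GFP_5xT71BS) and stably transfected FLAG-Cas9::T2A::Blasticidin. The tagged cells also carried HA-AVI-Tnrc6a, and the Ago2KO cells carried HA-AVI-Tnrc6a and were Ago2-/-. The untagged cells had the reporter line only, and the Trim71KO cells carried HA-AVI-Tnrc6a and were Trim71-/-. Both further groups also had 3 input libraries in the same experiment, and they enter only as reference levels and in direct tests. The cells were grown with serum and LIF, as dishes in triplicate. The labels do not say whether an Ago2-/- line was 1 clone or several, so p-values measure the spread between dishes and not between clones, and a change particular to a clone and a change due to the allele cannot be told apart.

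Argonaute proteins carry microRNAs to messenger RNAs by pairing of the microRNA's seed. They recruit the GW182 proteins Tnrc6a, Tnrc6b and Tnrc6c, which in turn bring the CCR4-NOT and PAN2-PAN3 deadenylases and so shorten the life of the message and lower its translation. Ago2 is the Argonaute that can also cut a target RNA. Mouse embryonic stem cells are rich in the miR-290 family, which is tied to their fast cell cycle, while let-7 family microRNAs mature as the cells differentiate.

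Mature sequences of these families are shown because lists of their reported target genes are described further on. They were taken from RefSeq (GRCm38.p6), where all 6 names looked up were matched. The seed, bases 2 to 8, is in capitals.
mmu-miR-291a-3p: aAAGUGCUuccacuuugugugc
mmu-miR-294-3p: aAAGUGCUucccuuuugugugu
mmu-miR-295-3p: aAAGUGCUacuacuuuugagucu
mmu-miR-302b-3p: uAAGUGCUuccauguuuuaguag
mmu-let-7a-5p: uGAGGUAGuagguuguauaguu
mmu-let-7g-5p: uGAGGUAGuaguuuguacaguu
The first 4 share the seed AAGUGCU, and both let-7 members share GAGGUAG. The microRNAs themselves were not measured in these libraries, and no target sites were searched.

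The 6 libraries held 16782458 to 20661884 counts in genes. Dishes of 1 group differed by more than counting noise, with a chi-square per gene of 3.01 to 5.7 between pairs, so none was treated as a library deposited more than once, which does not show that the dishes were independent. Defining markers of embryonic stem cells were high in both groups on the deposited RPKM scale, which is per length. Pou5f1 lay at 600 to 677 RPKM in tagged and 648 to 652 RPKM in Ago2KO cells, and Sox2, Nanog, Zfp42, Esrrb, Klf4 and Tfcp2l1 each stood above at least 97.9% of all genes.

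Ago2 RNA itself fell but was still present. In CPM, the counts of a gene scaled to the size of the library, it stood at 390.2, 321 and 347 in the tagged libraries and at 158, 162 and 167 in the Ago2KO libraries. All 3 Ago2KO values lay below every tagged value. The log2 change was -1.12 (SE 0.10, edgeR's quasi-likelihood test, adjusted p = 2.52e-08). Ago2 lies at chr15:73101625-73184947 (GRCm38.p6). The labels do not give the position of the lesion, and counts over the whole gene do not show whether the remaining RNA encodes a protein. On the beads, where RNA bound by tagged Tnrc6a is recovered, Ago2 RNA fell from 828 ± 78.6 to 195 ± 18.1 CPM (mean ± SD, n = 3 each, log2 change -2.09, edgeR adjusted p = 1.61e-13). Of the 12 nearest tested genes, 6 on each side of Ago2, 1 was called, against 6.96% of all genes tested: Chrac1, a chromatin accessibility subunit, with 30.5, 30.9 and 26.9 CPM in tagged and 22.8, 25.1 and 22.9 CPM in Ago2KO cells (log2 change -0.32, edgeR adjusted p = 0.0233). That call was lost in 4 of the 6 fits that left out a library, with adjusted p of 0.0728, 0.109, 0.0824 and 0.0882 without tagged library 1 or 2 or Ago2KO library 1 or 3.

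Ago1, the second most abundant Argonaute RNA of the tagged cells, rose. It measured 104, 87.3 and 90.5 CPM in tagged cells and 132, 130.5 and 129.7 CPM in Ago2KO cells, with no overlap (log2 change 0.48, SE 0.11, edgeR adjusted p = 0.00597). Per length, Ago1 lay at 10.8 to 12.8 RPKM in tagged and at 15.9 to 16.2 RPKM in Ago2KO cells. Ago2 lay at 22.9 to 27.7 RPKM in tagged and at 11.1 to 11.9 RPKM in Ago2KO cells, so that its level there was below that of Ago1. Ago3 was at 1.1 to 1.13 and 0.958 to 1.24 RPKM and Ago4 at 0.141 to 0.2 and 0.0956 to 0.188 RPKM, and neither passed the test (log2 changes 0.02 and -0.16, edgeR adjusted p = 0.955 and 0.832). The 3 GW182 genes had log2 differences above 0 that missed the threshold: 0.41 for Tnrc6a (edgeR adjusted p = 0.261), 0.32 for Tnrc6b (0.0583) and 0.17 for Tnrc6c (0.251). By edgeR with all 24 libraries none of the 3 was called, 2 had an unadjusted p under 0.05, and DESeq2 called 1. The result depended on the fit: edgeR called all 3 higher with only the 6 libraries compared or the 12 input libraries, and 2 with the replicate block. Tnrc6a read 93.8, 83.2 and 86.7 CPM in tagged and 114, 119 and 116 CPM in Ago2KO cells, so the libraries did not overlap.

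Across the transcriptome, 1376 of 19778 genes tested (6.96%) were called between Ago2KO and tagged input at an adjusted p under 0.05. Of these, 867 rose (4.38% of genes tested) and 509 fell (2.57%). An unadjusted p under 0.05 was reached by 3875 genes (19.6%). Most changes were small: 134 genes (0.678%) were called and changed at least 2-fold, 69 up (0.349%) and 65 down (0.329%). The median log2 change over all genes was 0.006, with quartiles at -0.14 and 0.144. The 3 libraries of each group did not overlap for 1366 of the 1376 called genes, and for 5732 of all genes tested (29%). The excess of rising genes depended on scaling. Rising genes made up 63% of the calls after TMM scaling and 51.1% with library size alone, which gave 611 up and 585 down. The number of calls fell to between 774 and 922 when any 1 of the 6 libraries was left out, and the lowest was without tagged library 2.

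**Figure D1:**
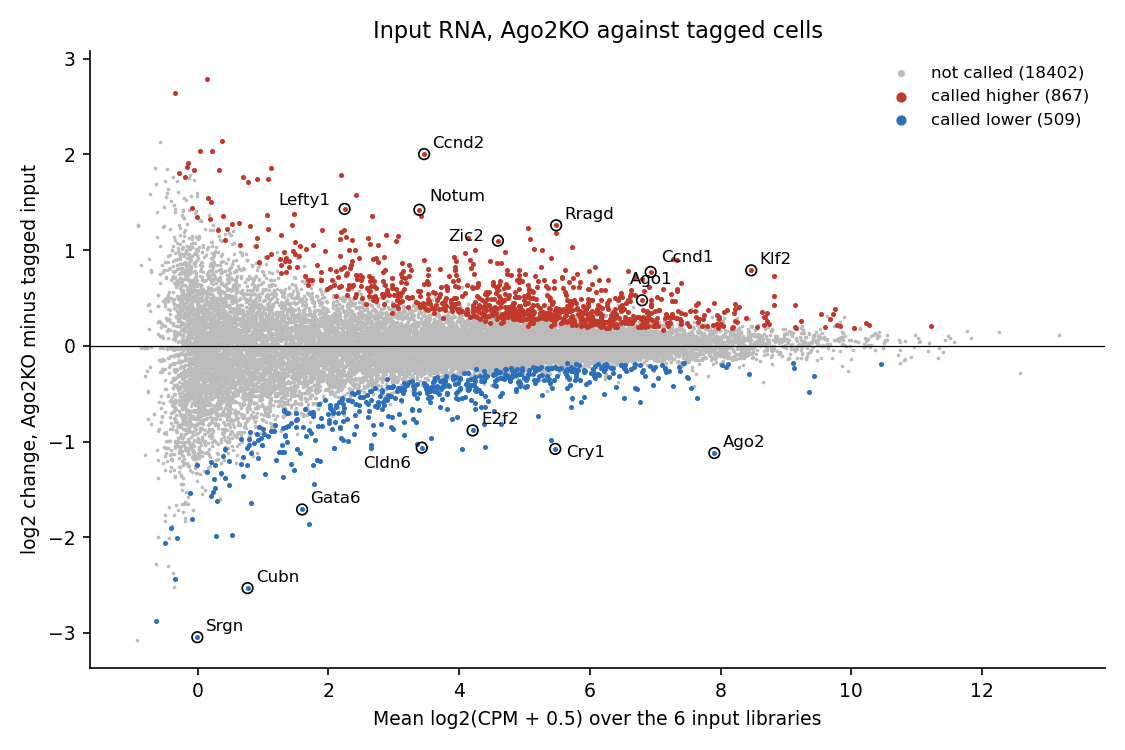
Log2 change of input RNA (Ago2KO minus tagged, vertical) against the mean log2 level over the 6 libraries (horizontal, CPM with 0.5 added) for the 19778 genes tested. Red points are the 867 genes called higher, blue the 509 called lower and grey the rest; circles mark genes named in the text. Most called genes lie within 1 log2 unit of no change.

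Ccnd2, cyclin D2, which drives entry into the cell cycle, had the largest rise among called genes with a mean of at least 2 log2 CPM, a symbol of their own and groups that do not overlap. It stood at 5.62, 4.54 and 5.47 CPM in tagged cells and at 21.6, 21.4 and 19.9 CPM in Ago2KO cells, a log2 change of 2.00 (SE 0.17, edgeR adjusted p = 8.96e-09). The untagged cells stood at 3.92, 5.06 and 4.84 CPM. Below the limit on abundance, Kdr, a VEGF receptor of the mesoderm list, went from 0.345, 0.32 and 0.242 to 2.06, 0.905 and 0.876 CPM (log2 change 2.04, edgeR adjusted p = 0.0144), a call lost without tagged library 2 (0.053), tagged library 3 (0.0708) or Ago2KO library 1 (0.127). Rragd, a Rag GTPase of the amino acid branch of mTORC1 signalling, rose from 29.8, 28.6 and 27.5 to 74.5, 63.6 and 67.7 CPM (log2 change 1.26, SE 0.09, edgeR adjusted p = 6.77e-10). The other groups lay below all Ago2KO libraries, with 32.3, 33 and 33.8 CPM in untagged and 31.7, 31.3 and 33.3 CPM in Trim71KO cells. Nrp2, a co-receptor for semaphorins and VEGF, rose from 22.3, 21.4 and 20.3 to 52.5, 49.3 and 48.6 CPM (log2 change 1.23, SE 0.10, edgeR adjusted p = 4.68e-09).

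Further genes with large rises were lower in abundance. Pla2g4e, a cytosolic phospholipase A2, went from 3.35, 1.87 and 3.19 to 8.02, 9.55 and 7.59 CPM (log2 change 1.57, edgeR adjusted p = 6.73e-07). Notum, a secreted enzyme that inactivates Wnt proteins, went from 5.67, 5.71 and 6.87 to 17.4, 17 and 14.7 CPM (log2 change 1.42, edgeR adjusted p = 3.56e-08). Igfbp7, a secreted protein that binds insulin-like growth factors, went from 4.79, 3.42 and 2.85 to 11.1, 9.28 and 8.08 CPM (log2 change 1.36, edgeR adjusted p = 8.63e-06). The rule that named these genes asks for groups that do not overlap. Rims1, a scaffold of the presynaptic active zone, rose by 1.36, Tmem132d by 1.21 and Lrrc15 by 1.19 on the log2 scale, with edgeR adjusted p of 6.73e-07, 7.22e-06 and 0.000739.

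The largest falls by the same rule, after Ago2, were in Col4a2, Cry1, Hormad2, Cldn7, Tex13b, Cldn6, Xlr3a, Bcas1 and Plac8. Cry1, a repressor in the circadian clock, stood at 64.4, 63.7 and 63.4 CPM in tagged and 26.5, 31.8 and 32.3 CPM in Ago2KO cells, and fell by 1.08 on the log2 scale (SE 0.07, edgeR adjusted p = 8.47e-11). The tagged, untagged (64.7, 65.5 and 68 CPM) and Trim71KO libraries (65.8, 66.7 and 72.5 CPM) were all above 60 CPM. Cldn6, a tight junction claudin, fell from 14.9, 14.2 and 15.4 to 6.29, 7.61 and 7.35 CPM (log2 change -1.06, edgeR adjusted p = 2.48e-06), and Cldn7 changed by -1.07 (edgeR adjusted p = 0.00504). Hormad2, a protein of the meiotic chromosome axis, fell from 10.1, 7.37 and 7.74 to 4.01, 4.12 and 3.85 CPM (log2 change -1.07, edgeR adjusted p = 1.79e-05). Col4a2, a type IV collagen chain of basement membranes, had a log2 change of -1.08, Tex13b of -1.06, Bcas1 of -1.04 and Plac8 of -0.99. Their edgeR adjusted p were 2.46e-05, 9.41e-05, 7.24e-05 and 0.000128. Xlr3a, one of a family of near-identical X-linked copies, had a log2 change of -1.06 (edgeR adjusted p = 6.73e-07).

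**Figure D2:**
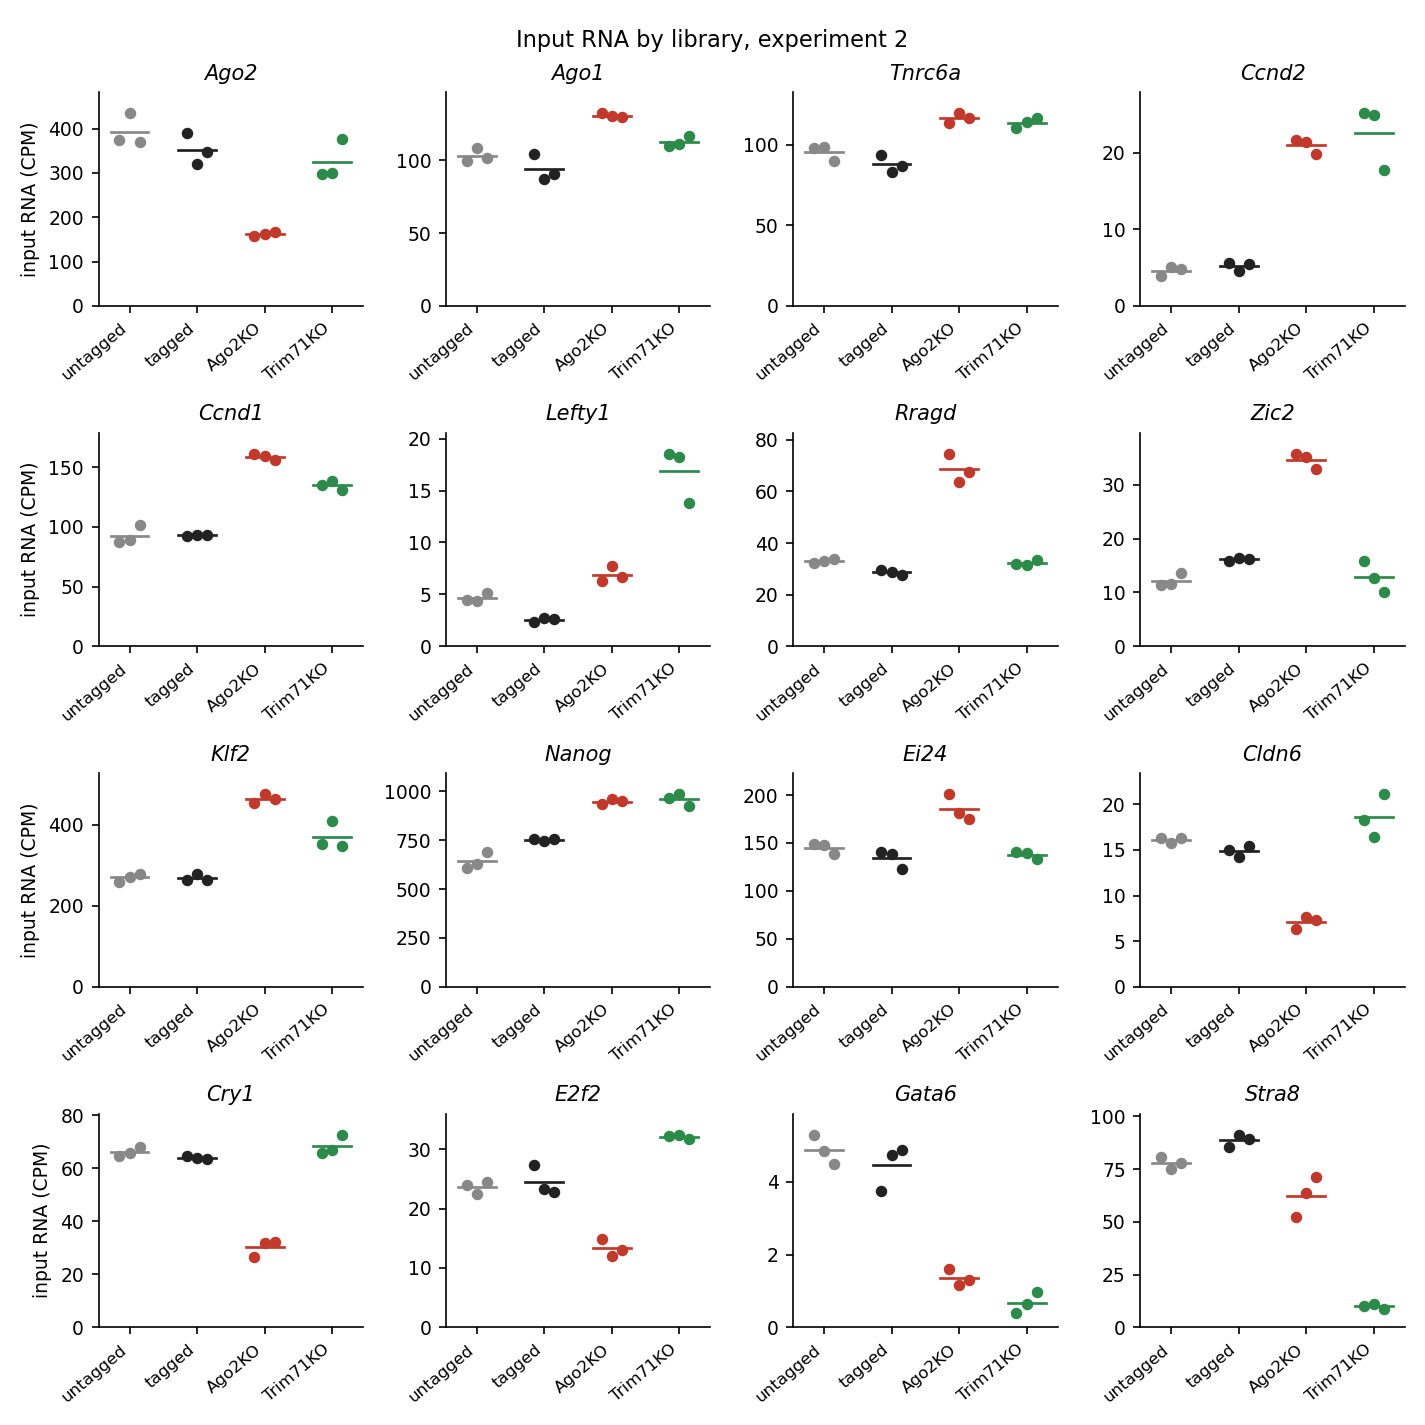
Input RNA in CPM (vertical, from 0) for 16 genes in the 4 input groups of experiment 2, with 1 point per library and a line at the mean of 3 libraries. Ccnd2 is high in both Ago2KO and Trim71KO cells, whereas Rragd and Zic2 are high, and Cry1 and Cldn6 low, in Ago2KO cells alone among the groups drawn.

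A larger share of the RNAs bound by tagged Tnrc6a than of all RNAs was called higher, and their median shift was small. Binding was taken from experiment 1, whose libraries are not those compared here: a gene counts as bound if its recovery on beads over input was higher with the tag than without it at an edgeR adjusted p under 0.05, which held for 5276 of 18772 genes (28.1%). Of the 5233 bound genes tested in both experiments, 434 rose (8.29%) and 144 fell (2.75%). Over all 18553 genes tested in both, 4.63% rose and 2.69% fell. The median log2 change was 0.043 for bound genes, which is a level higher by 3%, against 0.010 for all. Genes whose recovery did not pass the test (7925) had 3.1% up and 2.65% down with a median of -0.012, and genes depleted from the beads with the tag (5395) had 3.32% up and 2.69% down with a median of 0.006. These shares depend on the fit, whose spread includes the bead libraries. With only the 12 input libraries, 13.1% of bound genes rose and 5.49% fell. That fit called 1268 genes higher and 876 lower of about 19260 tested.

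Across classes of stronger recovery the share of falls was lower, and so was the level of the RNAs. Among genes bound less than 2-fold, 7.46% rose and 4.06% fell. From 2-fold to 4-fold it was 8.46% and 2.61%, from 4-fold to 8-fold 9.84% and 2.05%, and at 8-fold or more 7.69% and 0.997%. The median log2 changes in these classes were 0.019, 0.045, 0.083 and 0.073, and their median levels 5.08, 4.21, 3.65 and 3.32 log2 CPM. Of the 3558 genes bound at least 2-fold, 309 rose and 76 fell, and 21 of the rises and 9 of the falls reached 2-fold. Read the other way, 36% of the genes that rose and 15.2% of those that fell were bound at least 2-fold, against 19.2% of all genes tested in both experiments. Thus most of the RNAs that rose were not in the class bound at least 2-fold. Counted without the 2-fold limit, 434 of the 859 genes that rose and were tested in both experiments were bound.

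**Figure D3:**
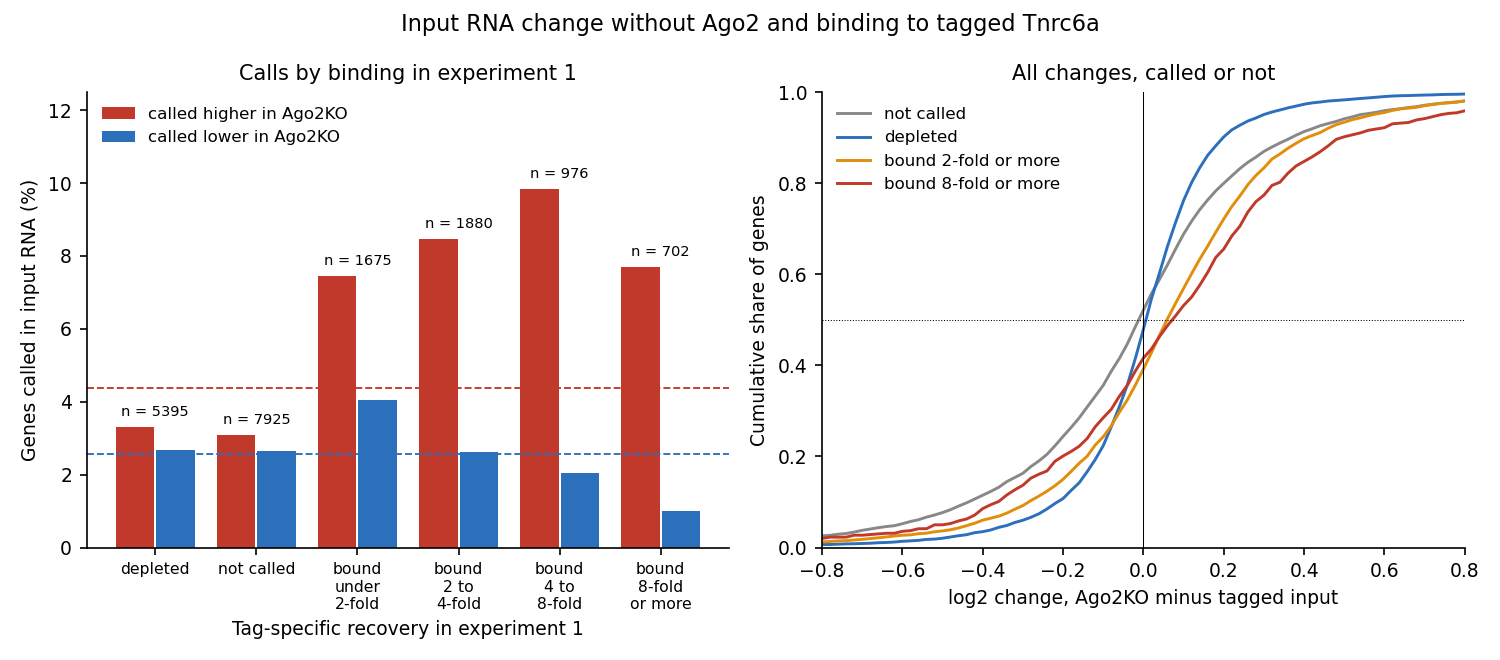
Left, percent of genes called higher (red) or lower (blue) in Ago2KO input, by their tag-specific recovery in experiment 1; n is the number of genes and dashed lines are the shares over all genes tested, 4.38% and 2.57%. Right, cumulative share of genes against the log2 change for 4 of the classes; the curves of bound genes lie to the right by less than 0.1 log2 at their medians.

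Abundance differed between these classes, and it sets how easily a change is called. The median level was 4.41 log2 CPM for bound genes and 2.15 for genes not called with the tag. In 5 bins of rising abundance, the share of bound genes that rose was 1.3%, 3.19%, 6.74%, 10.6% and 13.8%, against 0.566%, 2.16%, 3.49%, 4.56% and 4.95% of the other genes in the same bins. The share was thus higher for bound genes in all 5 bins. Falls showed no such order: 1.52%, 2.62%, 3.49%, 2.69% and 2.61% of bound genes fell in these bins, against 1%, 2.75%, 4.49%, 3.12% and 1.79% of the others. Per library, log2 levels were also taken relative to the mean of the 3 tagged libraries, which sets the tagged values near 0. The median of genes bound at least 2-fold, less that of other genes, was 0.035, -0.02 and -0.013 in tagged cells. In Ago2KO cells it was 0.074, 0.06 and 0.045. All 3 Ago2KO values lay above all 3 tagged values. With library size alone, the bound median was 0.006 and that of all genes -0.030, so the sign of the small shift against 0 rests on the scaling, which moves all genes alike.

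Recovery on the beads in Ago2KO cells divided the bound genes. Of the genes bound at least 2-fold, 32.7% had a lower level on the beads in Ago2KO than in tagged cells at an edgeR adjusted p under 0.05, against 9.32% of all genes tested. These 1163 genes had a median input change of 0.008, with 7.48% up and 4.99% down. The other 2395 had a median of 0.086, with 9.27% up and 0.752% down. A level on the beads also carries the level in the lysate: among 456 genes that were not bound and fell on the beads, 32.7% fell in input and the median was -0.257. The bead level and the input change are therefore not independent, and the difference between these classes is a description.

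Among RNAs bound at least 2-fold, the largest rises by rule after Ccnd2 were in Lefty1, Rims1, Rragd, Il6ra, Fgf15, Nptx1, Glis3, Zic2 and 1700042O10Rik. Lefty1, a secreted antagonist of Nodal, rose from 2.37, 2.72 and 2.61 to 6.29, 7.7 and 6.72 CPM (log2 change 1.43, SE 0.20, edgeR adjusted p = 3.63e-05). Untagged cells lay between, at 4.5, 4.36 and 5.09 CPM. Il6ra, the receptor chain for interleukin 6, rose from 5.43, 4 and 4.31 to 11.2, 10.7 and 8.91 CPM (log2 change 1.16, edgeR adjusted p = 4.44e-05). Fgf15, a secreted fibroblast growth factor, rose from 11.9, 12.1 and 10.8 to 25.7, 23.6 and 26.9 CPM (log2 change 1.13, edgeR adjusted p = 6.73e-07). Zic2, a zinc finger regulator of the formative and neural programmes, rose from 15.8, 16.4 and 16.2 to 35.7, 35.1 and 32.9 CPM (log2 change 1.10, edgeR adjusted p = 4.56e-06). Glis3, a zinc finger transcription factor, Nptx1, a neuronal pentraxin, and 1700042O10Rik rose by 1.10, 1.11 and 1.06 on the log2 scale, with edgeR adjusted p of 1.93e-05, 0.000357 and 0.000111. On the beads Ccnd2 stood at 12 ± 2.61 CPM in tagged and 28.6 ± 3.39 CPM in Ago2KO cells (mean ± SD, n = 3 each), and Rragd at 61.7 ± 8.57 and 109.5 ± 15.6 CPM. Both were higher on the beads in Ago2KO cells, by 1.26 and 0.83 on the log2 scale (edgeR adjusted p = 1.46e-06 and 1.73e-07).

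Some bound RNAs fell, with the largest falls by rule after Ago2 as follows. E2f2, a transcription factor of the cell cycle with a log2 tag-specific recovery of 5.54 in experiment 1, stood at 27.2, 23.3 and 22.8 CPM in tagged and 14.9, 11.9 and 13 CPM in Ago2KO input (log2 change -0.88, SE 0.21, edgeR adjusted p = 0.0108). On the beads it stood at 378 ± 124 and 169 ± 66.3 CPM (log2 change -1.16, edgeR adjusted p = 4.24e-05). The input call was lost without tagged library 1 (adjusted p = 0.0584) and without Ago2KO library 2 (0.0642). Ier5, an immediate early gene, had 5.58, 7.04 and 5.08 and 3.23, 2.44 and 3.26 CPM (log2 change -0.99, edgeR adjusted p = 0.02), and its call was lost without tagged library 2 (0.11), Ago2KO library 1 (0.0546) or Ago2KO library 2 (0.114). Hapln4, a link protein of the extracellular matrix, and Rhobtb1 changed by -0.86 and -0.85 (edgeR adjusted p = 0.00269 and 0.000451).

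Few single members of the reported miR-290 family targets were called. For this and every later list, the shares over all genes tested are 4.38% called higher and 2.57% lower. Lists of bound or abundant RNAs have other reference shares. Of genes bound at least 2-fold, 8.68% were called higher and 2.14% lower. Of autosomal genes with a mean of at least 2 log2 CPM, 6.21% were called higher and 3.31% lower. Of 11 listed, 10 were tested, all bound at least 2-fold, and 1 rose and 0 fell by edgeR, with a median log2 change of 0.118 and 9 values above 0. An unadjusted p under 0.05 was found for 2 higher and 0 lower, and DESeq2 called 1 higher and 0 lower, while edgeR called 3 higher with only the 6 libraries compared or the 12 input libraries. The summed level of the list was 428.9 to 460.5 CPM in tagged and 526.4 to 536.7 CPM in Ago2KO cells, without overlap. The gene that rose with all 24 libraries was Ei24, a gene of the endoplasmic reticulum, from 140.5, 138 and 123 to 201, 181 and 175 CPM (log2 change 0.47, SE 0.11, edgeR adjusted p = 0.0077). The call was lost without tagged library 3 (adjusted p = 0.0554) and without Ago2KO library 1 (0.0757). On the beads Ei24 went the opposite way, from 951 ± 208 to 544 ± 94.9 CPM (log2 change -0.81, edgeR adjusted p = 5.96e-06). Cdkn1a, the cell cycle inhibitor p21 and among the most strongly recovered RNAs (log2 5.84 in experiment 1), measured 61.2, 67.3 and 64.6 CPM in tagged and 65.7, 69.7 and 77.9 CPM in Ago2KO input (log2 change 0.14, edgeR adjusted p = 0.643). The groups overlapped. Rbl2, a relative of the retinoblastoma protein, and Casp2, a caspase, had log2 changes of -0.15 and 0.04 (edgeR adjusted p = 0.753 and 0.932).

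Reported let-7 targets included several of the risers. Of 20 tested, 5 rose and 1 fell, with a median of 0.111. Beside Ccnd2, Ccnd1, cyclin D1, rose from 92.5, 93 and 93.3 to 161, 159 and 156 CPM (log2 change 0.77, SE 0.07, edgeR adjusted p = 9.1e-08). Mycn, a growth-promoting transcription factor, rose from 115, 114 and 108 to 177, 167 and 164 CPM (log2 change 0.59, SE 0.10, edgeR adjusted p = 0.000433). The RNA-binding proteins Igf2bp3 and Igf2bp2 rose by 0.39 and 0.21 on the log2 scale (edgeR adjusted p = 0.000192 and 0.0126). Igf2bp2 was not called with library size alone (adjusted p = 0.142) or without tagged library 3 (0.0603). Dusp9, a phosphatase of MAP kinases, fell by 0.34 (edgeR adjusted p = 0.0104), a call lost without tagged library 3 (0.0534) or Ago2KO library 1 (0.0676). Lin28a, the inhibitor of let-7 maturation, did not pass the test (log2 change 0.10, edgeR adjusted p = 0.432). Of 8 reported Trim71 targets tested, 1 rose: Nab2, with a log2 change of 0.29 (edgeR adjusted p = 0.0301), lost in 5 of 6 fits that left out a library (adjusted p 0.0586 to 0.18).

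Genes of the naive pluripotent state leaned upward. Of 22 tested, 8 rose and 1 fell, with a median log2 change of 0.199 and 18 values above 0. With library size alone, 5 rose. Klf2, a Krüppel-like factor of the naive network, rose most, from 264, 278 and 265 to 454, 476 and 465 CPM (log2 change 0.79, SE 0.12, edgeR adjusted p = 7.4e-05). Nanog went from 755, 745 and 755 to 933, 958 and 952 CPM (log2 change 0.33, edgeR adjusted p = 0.000759) and Sox2 from 660.4, 660.5 and 654 to 854, 817 and 819.6 CPM (log2 change 0.33, edgeR adjusted p = 0.000825). In all 3 genes the groups did not overlap. Prdm14, a repressor of differentiation genes, and Tdh, threonine dehydrogenase, rose by 0.36 and 0.34 (edgeR adjusted p = 0.00106 and 0.00045). Esrrb, Dppa5a and Tcl1 rose by 0.22, 0.24 and 0.20 and were not called with library size alone (adjusted p 0.075, 0.179 and 0.157). The calls of Dppa5a and Tcl1 were lost in all 6 fits that left out a library, with adjusted p of 0.0614 to 0.129 for Dppa5a and 0.0598 to 0.114 for Tcl1. Klf4 fell by 0.23 (edgeR adjusted p = 0.0251) and lost its call without tagged library 1 (0.0939), tagged library 3 (0.0843), Ago2KO library 2 (0.111) or Ago2KO library 3 (0.103).

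Several genes of Nodal signalling rose. Of 23 genes of the Nodal and TGF-beta pathway tested, 5 rose and 0 fell by edgeR, with a median of 0.255. Before adjustment, 9 were higher and 0 lower at p under 0.05, and DESeq2 called 6 higher and 0 lower. Among the ligands, Nodal rose from 17.2, 17.7 and 15.2 to 23.7, 23.2 and 20.4 CPM (log2 change 0.42, SE 0.09, edgeR adjusted p = 0.00266), and Gdf3, a related ligand, rose from 33.6, 31.3 and 33.8 to 59.3, 46.9 and 44 CPM (log2 change 0.60, SE 0.09, edgeR adjusted p = 7.22e-05). Their antagonist Lefty1 had the largest rise of the list. The intracellular mediators Smad2 and Smad3 rose by 0.26 and 0.32 on the log2 scale (edgeR adjusted p = 0.0219 and 0.025). Smad2 lost its call in all 6 fits that left out a library (adjusted p 0.0512 to 0.111), and Smad3 lost it in 4 (0.0628 to 0.148). Both also missed the threshold with library size alone (0.0536 and 0.0634).

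The Wnt list gave 4 rises and 0 falls among 13 genes tested by edgeR, with a median of 0.06. Before adjustment the numbers were 5 and 0 at p under 0.05, and DESeq2 called 4 and 0. Beside Notum and Ccnd1, these were the transcription factors Lef1, from 11.9, 13.1 and 15.1 to 20.4, 25.8 and 24.4 CPM (log2 change 0.82, edgeR adjusted p = 5.39e-05), and Tcf7 (log2 change 0.28, edgeR adjusted p = 0.00262). Axin2, a widely used Wnt target, measured 12, 11.5 and 13.1 CPM in tagged and 11.9, 12 and 11.4 CPM in Ago2KO cells (log2 change -0.05, edgeR adjusted p = 0.827). The calls therefore cover part of the list.

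BMP and FGF genes moved in both directions. Of 15 BMP genes, 2 rose and 2 fell: Id1, an inhibitor of helix-loop-helix factors, fell from 28.5, 24.4 and 24.3 to 16.3, 17.9 and 15.4 CPM (log2 change -0.64, edgeR adjusted p = 0.000876), whereas its relative Id4 had a log2 change of 0.80 (edgeR adjusted p = 0.013). Id4 was not called without tagged library 3 (0.111), Ago2KO library 1 (0.0935) or Ago2KO library 2 (0.0534). The calls of Id3 (higher) and Bmp4 (lower) were lost in 5 and 2 of the 6 fits that left out a library. Of 23 FGF and ERK genes, 2 rose and 4 fell. Leaving out a library ended the falls of Fgfr3 in all 6 fits, of Fgfr4 in 5 and of Spry1 in 3. Their edgeR adjusted p there were 0.0748 to 0.169, 0.0539 to 0.118 and 0.0895 to 0.177. The rise of Etv1 was lost in 4 fits (0.093 to 0.152). Etv4, a transcription factor downstream of FGF signalling, fell from 116, 108 and 107 to 81.8, 78.4 and 66.8 CPM (log2 change -0.55, edgeR adjusted p = 6.78e-05), and Sos1, an activator of Ras and a bound RNA, rose from 54.1, 50.1 and 55.6 to 70, 65.9 and 72.1 CPM (log2 change 0.38, edgeR adjusted p = 0.00165).

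Among 18 cyclins, kinases and E2F factors, 3 rose and 1 fell. Ccnd1 and Ccnd2 were joined by Cdk6, their kinase partner, with a log2 change of 0.33 (edgeR adjusted p = 0.00473, and 0.0554 without Ago2KO library 1). Of 13 genes that slow the cell cycle, 1 rose and 0 fell by edgeR, with 1 higher and 2 lower at an unadjusted p under 0.05 and 1 and 0 called by DESeq2. That gene was Rb1, the retinoblastoma protein, from 25.9, 27.6 and 27.5 to 36.5, 40.9 and 40.7 CPM (log2 change 0.55, SE 0.09, edgeR adjusted p = 0.000407). Ccnd1 and Ccnd2 thus rose together with Rb1, against which D-type cyclins act, while Ccnd3, the remaining D-type cyclin, did not pass the test (log2 change 0.16, edgeR adjusted p = 0.278). In the list of 22 genes of the growth pathway through PI3K, Akt2, a kinase, rose by 0.48 on the log2 scale (edgeR adjusted p = 0.000146). Inpp5d, a phosphatase that opposes PI3K, fell by 0.44 (edgeR adjusted p = 0.00114).

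Of the 24 genes of the p53 response, 1 rose and 2 fell, with a median of -0.058. Pmaip1, the pro-apoptotic protein Noxa, fell from 145, 129.7 and 123 to 86.7, 91.4 and 86.9 CPM (log2 change -0.58, SE 0.07, edgeR adjusted p = 7.41e-06). Of 21 imprinted genes tested, 3 rose and 0 fell by edgeR, with 4 higher and 0 lower at an unadjusted p under 0.05 and 3 and 0 by DESeq2. Grb10, an adaptor that restrains insulin signalling, rose from 371, 366 and 395 to 529, 530.3 and 564 CPM (log2 change 0.52, edgeR adjusted p = 5.67e-06), and Peg3, a zinc finger gene, from 17.2, 13.8 and 21.3 to 29.6, 31.6 and 34.3 CPM (log2 change 0.87, edgeR adjusted p = 6.23e-05). Of 18 interferon and innate sensing genes listed, 10 were tested. Oas1a and Ddx58, both sensors of double-stranded RNA, rose by 0.81 and 0.50 on the log2 scale (edgeR adjusted p = 1.61e-05 and 0.00294).

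Several primitive endoderm genes were lower in Ago2KO cells. Of 23 listed, 20 were tested, of which 0 rose and 8 fell by edgeR, with a median log2 change of -0.383. Before adjustment, 0 were higher and 9 lower at p under 0.05, and DESeq2 called 0 higher and 7 lower. A gene low in Ago2KO cells could enter the test through the other groups, so these numbers describe the list. Gata6, the transcription factor of that lineage, stood at 3.75, 4.75 and 4.89 CPM in tagged and 1.61, 1.18 and 1.31 CPM in Ago2KO cells (log2 change -1.71, SE 0.22, edgeR adjusted p = 7.22e-06). Dab2, an endocytic adaptor, fell from 5.08, 4.48 and 5.76 to 1.56, 1.04 and 1.66 CPM (log2 change -1.86, edgeR adjusted p = 6.39e-06). Cubn, an endocytic receptor of the visceral endoderm, fell from 2.71, 2.19 and 2.9 to 0.334, 0.407 and 0.584 CPM (log2 change -2.53, edgeR adjusted p = 8.8e-05). Pdgfra and Col4a1 fell by 1.12 and 0.98 on the log2 scale (edgeR adjusted p = 0.000903 and 0.00152). Srgn, Foxq1 and Col4a2 were the other members called, with log2 changes of -3.04, -1.08 and -1.08. Foxq1 lost its call in 5 of 6 fits that left out a library (adjusted p 0.0968 to 0.212) and with the 12 input libraries alone (0.0562). Gata4 and Sox17, further transcription factors of the lineage, did not pass the test: Gata4 measured 5.43, 4.8 and 5.08 CPM in tagged and 4.12, 3.85 and 4.53 CPM in Ago2KO cells, and Sox17 1.14, 1.23 and 1.45 CPM and 0.613, 0.317 and 0.974 CPM. The summed level of the list ran from 652.9 to 799.4 CPM in tagged and from 708.9 to 840.1 CPM in Ago2KO cells, with Lamc1, Sparc and Lamb1 as its most abundant members, so the sums overlapped. In RNA from whole dishes, fewer cells of a type and less RNA per cell cannot be told apart.

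Of 21 germline and meiosis genes tested (23 listed), 7 were called lower and 0 higher by edgeR, against 2.57% and 4.38% of all genes tested, with a median of -0.397 and 3 values above 0. Their summed level was 397.2 to 407 CPM in tagged and 312.3 to 346.7 CPM in Ago2KO cells, without overlap. Before adjustment, 11 were lower and 2 higher at p under 0.05, and DESeq2 called 8 lower and 1 higher. Rhox5, an X-linked homeobox gene, fell from 10.6, 11.2 and 13.2 to 6.02, 6.66 and 5.65 CPM (log2 change -0.93, edgeR adjusted p = 1.25e-05). Mov10l1, a helicase of the piRNA pathway, fell from 18.4, 18.3 and 19.2 to 9.8, 11.5 and 11.5 CPM (log2 change -0.77, edgeR adjusted p = 0.000216), and Piwil4, a PIWI protein, fell from 8.04, 9.55 and 8.37 to 5.35, 5.25 and 4.19 CPM (log2 change -0.81, edgeR adjusted p = 0.000403). Dazl, a germ cell RNA-binding protein, fell by 0.40 (edgeR adjusted p = 0.000855). Piwil4 and Dazl did not pass the test against untagged input, as given further on. When a library was left out, 4 to 7 members were called lower. Sycp3 lost its call in 5 of 6 such fits (edgeR adjusted p 0.0701 to 0.161) and Taf7l in 4 (0.05 to 0.163). Stra8 lost it without Ago2KO library 1 (0.0674). None of the 21 genes was bound at least 2-fold.

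Markers of further cell types were mixed. In the trophoblast list, 2 of 9 tested (12 listed) rose and 3 fell, and the summed level was 147 to 166.3 CPM in tagged and 181.1 to 205.5 CPM in Ago2KO cells. The defining genes Cdx2, Elf5 and Gata3 were not among the genes tested. Tfap2c, which embryonic stem cells also express, rose from 75.7, 85.2 and 82 to 114, 120.1 and 129.8 CPM (log2 change 0.58, edgeR adjusted p = 5.4e-07), and Krt7, Krt8 and Krt19, keratins of simple epithelia, fell by 0.84, 0.68 and 0.50 (edgeR adjusted p = 0.029, 0.011 and 0.0397). Leaving out a library ended the call in 4 of 6 fits for Krt7 (adjusted p 0.0526 to 0.155), in 5 for Krt19 (0.0607 to 0.21), and for Krt8 without tagged library 2 (0.0989) or Ago2KO library 2 (0.0605). In the neural list, which summed to 531.7 to 546.7 CPM in tagged and 575.6 to 604.9 CPM in Ago2KO cells, 3 of 11 tested (16 listed) rose, among them Sox21, from 3.4, 4.11 and 3.77 to 9.02, 7.79 and 7.88 CPM (log2 change 1.13, edgeR adjusted p = 0.000124). In the mesoderm list, 2 of 8 tested (15 listed) rose, and Gsc, a homeobox gene of the organizer, went from 0.592, 1.07 and 0.871 to 3.06, 2.49 and 2.97 CPM (log2 change 1.75, edgeR adjusted p = 2.74e-05), while the summed list lay at 13.91 to 15.69 CPM in tagged and 17.07 to 18.4 CPM in Ago2KO cells. Of 7 fibroblast genes tested (15 listed), 1 rose, Vim, which embryonic stem cells express as well, and the list summed to 289.1 to 297.9 CPM in tagged and 354.6 to 378.1 CPM in Ago2KO cells. Fibroblast genes such as Col1a2, Col3a1 and Dcn were not among the genes tested. The part of other cell types in the changes of this comparison was not tested.

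Smaller numbers of calls were made in the remaining lists. Over all genes tested 6.96% were called, so 1 call among 21 or 22 genes is not read as a result about its list. Of 17 genes of epithelial identity and its loss, 2 rose and 3 fell. Snai1, a repressor of epithelial genes, fell from 2.57, 2.88 and 2.76 to 0.891, 1.4 and 1.46 CPM (log2 change -1.11, edgeR adjusted p = 0.00276). The claudins Cldn6 and Cldn7 fell too. The epithelial genes Cdh1, Epcam, Ocln and Tjp1 of the same list did not pass the test. Their log2 changes were -0.091, -0.095, 0.012 and -0.007 (edgeR adjusted p = 0.729, 0.656, 0.987 and 0.986). Vim rose from 203, 203 and 205 to 265, 276 and 293 CPM (log2 change 0.45, edgeR adjusted p = 6.82e-06), and Zeb1, a bound RNA that encodes another repressor of epithelial genes, rose by 0.46 (edgeR adjusted p = 0.0066, and 0.0553 without tagged library 1). Of 16 formative and primed genes tested, 4 rose, Zic2 and Lef1 most, and 2 fell, Cldn6 most. The rise of Otx2 (edgeR adjusted p = 0.0492) was lost in all 6 fits that left out a library (0.0737 to 0.16) and in 3 other settings. The fall of Tcf15 was lost in 5 of those 6 fits (0.0812 to 0.16). Calls were also made for 2 of 15 Bcl-2 family genes (Pmaip1 and Bid, both lower), 1 of 22 Hippo genes (Nf2, higher), 1 of 21 Polycomb genes (Phf19, higher), 2 of 9 DNA methylation genes (Dnmt1 higher, Tdg lower) and 2 of 25 immediate early genes (Nab2 higher, Ier5 lower). The Dnmt1 groups overlapped, and its call was lost with library size alone (adjusted p = 0.0638), with no filter on low counts (0.0517) and in 4 of 6 fits that left out a library (0.103 to 0.209). Leaving out a library also ended the calls of Bid in all 6 fits (0.0676 to 0.168) and of Phf19 in 4 (0.0599 to 0.112).

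**Figure D4:**
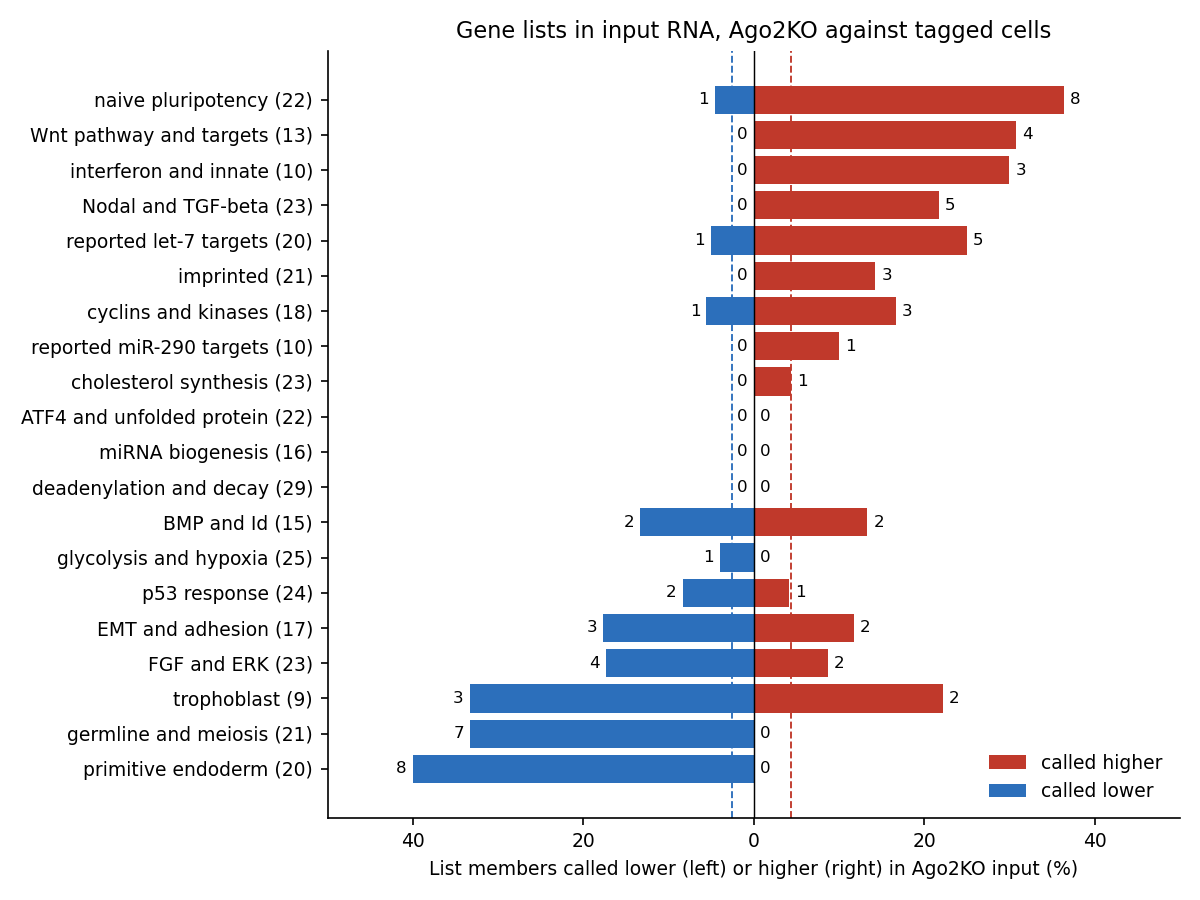
Percent of tested members called lower (blue, left) or higher (red, right) in Ago2KO input for 20 gene lists, with the number of members tested in brackets and the number called beside each bar. Dashed lines are the shares over all genes tested, 2.57% lower and 4.38% higher; naive pluripotency (8 of 22 up) and primitive endoderm (8 of 20 down) lie at opposite ends.

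In the silencing machinery beyond Argonautes, edgeR made no call with all 24 libraries in the fit. In 7 lists it then called none of the 108 distinct genes tested: GW182 proteins, microRNA biogenesis (16 genes), deadenylation and decay (29), the ATF4 and unfolded protein response (22), Pumilio, Nanos and Zfp36 proteins (16), clathrin endocytosis (16) and the 2-cell programme (6). Of these 108 genes, 11 were higher and 5 lower at an unadjusted p under 0.05, and DESeq2 called 1, in the GW182 list. These zeros depended on the fit. With the 6 libraries compared alone, and likewise with the 12 input libraries, edgeR called 1 decay gene higher and 5 lower, 1 gene of the unfolded protein list higher and 1 lower, 1 of the Pumilio list lower and 1 of the clathrin list higher, beside the 3 GW182 genes. With library size alone 3 decay genes were called lower, and the replicate block gave 1 decay gene higher, 1 lower and 1 biogenesis gene higher, as did leaving out tagged library 1 for biogenesis. Cholesterol synthesis (23 genes, 1 up) and glycolysis with hypoxia (25 genes, 1 down) had 1 call each. Over all lists, which were chosen with earlier results known, 95 of 566 distinct genes tested were called, 55 up and 40 down, against 6.96%, 4.38% and 2.57% of all genes tested.

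Several of the genes that rose were also high in Trim71KO cells. Comparisons of either knockout with tagged cells use the same tagged libraries, so only direct tests between Ago2KO and Trim71KO input are given, in which 28.4% of genes were called. Ccnd2 measured 25.1, 24.9 and 17.8 CPM in Trim71KO cells and did not pass the direct test (log2 difference -0.11, edgeR adjusted p = 0.63). Notum, at 18, 19.9 and 14.9 CPM, and Igfbp7, at 10.3, 8.12 and 8.59 CPM, did not pass it either (edgeR adjusted p = 0.551 and 0.797). Lefty1, at 18.5, 18.2 and 13.8 CPM, was higher still in Trim71KO than in Ago2KO cells (log2 difference, Ago2KO minus Trim71KO, -1.28, edgeR adjusted p = 8.44e-07). Rims1, Rragd, Zic2 and Fgf15 were higher in Ago2KO than in Trim71KO cells, by 1.83, 1.09, 1.42 and 1.05 on the log2 scale (edgeR adjusted p = 1.36e-09, 1.11e-09, 1.47e-08 and 2.5e-07). Gata6 was low in both, at 0.393, 0.633 and 0.966 CPM in Trim71KO cells.

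Against the untagged input, a second control, 2994 genes were called (15.1%), 1627 higher (8.23%) and 1367 lower (6.91%) in Ago2KO cells. The tagged and untagged controls were not interchangeable for every gene or chromosome. Among genes with a mean of at least 2 log2 CPM, the median of tagged minus untagged input was -0.105 on chromosome 8 (650 genes). It was 1.376 on chromosome Y (6 genes), while the other autosomes ran from -0.035 to 0.012. For Ago2KO minus untagged, these medians were -0.107 on chromosome 8 and 1.693 on Y. The cause was not tested. Lefty1 and Nptx1 had smaller differences from untagged than from tagged cells, at 0.57 and 0.72 on the log2 scale (edgeR adjusted p = 0.0357 and 0.0077). Ccnd2, Rragd, Cry1 and Cldn6 kept their direction against untagged cells, with log2 differences of 2.18, 1.05, -1.13 and -1.18 (edgeR adjusted p = 1.07e-09, 5.13e-09, 5.4e-12 and 1.81e-07). Bcas1 and Piwil4 did not pass the test against untagged cells (-0.38 and -0.17, edgeR adjusted p = 0.129 and 0.484), and Dazl measured 51.4, 46.2 and 54.5 CPM there, below the tagged and near the Ago2KO level (log2 difference 0.06, edgeR adjusted p = 0.654). Of bound RNAs, 12.7% were higher in Ago2KO than in untagged cells, with a median log2 difference of 0.027.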

How the data were processed

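The authors sequenced input and HA-bead RNA of mouse embryonic stem cells with a stranded total RNA kit, per the labels' protocols. Per the submitters' processing notes, bcl2fastq (2.20), STAR (2.7.3a) and GRCm38/mm10 were used; the counting tool, annotation and filters are not given in the sources used here. The deposited tables hold raw counts per gene, which were used for every test, and the authors' RPKM values, used only for levels between genes. Of 19866 rows, 16231 have a symbol of their own, 3572 none and 63 a shared one.

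The counts of experiment 2 (8 groups of 3 libraries, 16296447 to 21026552 counts each) were fitted with edgeR 4.0.16 in R 4.3.3 (filterByExpr, TMM, quasi-likelihood test, 1 mean per group, Benjamini-Hochberg adjustment over 19778 genes, called at adjusted p under 0.05). Each gene had 1 estimate of the spread, shared by all 24 libraries, input and HA-bead alike. The median SE of a log2 change was 0.127. CPM values use TMM-scaled library sizes. Bound RNAs were called in experiment 1 with the same test. Tested on simulated counts for this comparison (19628 genes), 83 of 100 genes changed 1.5-fold and 98 of 100 changed 2-fold were recovered. None had the wrong sign, and 10 of 191 calls (5.24%) were false. The changed genes were drawn from those with a mean of at least 2 log2 CPM, so recovery below that level was not tested.

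Named genes are Argonautes and Tnrc6 genes, called members and defining members of the lists, the 10 largest changes each way among called genes with a mean of at least 2 log2 CPM, a symbol of their own and groups that do not overlap, and the same 10 up and 5 down among RNAs bound at least 2-fold; 1149 genes met that rule. Some called members are not reported here. The members and the 38 lists were chosen with earlier results of these data known. Some lists overlap. Alternatives were RLE scaling, library size alone, no filter, DESeq2 1.42.0, fewer groups in the fit, a replicate block, each library left out and other sets of bound RNAs. The main fit did not pair samples by replicate number. Same-numbered tagged and Ago2KO libraries correlated at 0.29, 0 and 0.29 in their deviations from the group means. Differently numbered ones correlated at -0.33 to 0.05. These values do not settle whether the numbers mark pairs. Seed matches in 3′ UTRs were not analysed here.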

Additional observations from a re-analysis of the deposited data

How the results depend on the processing

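The count of called genes moved most with the libraries in the fit: 2481 (1461 up, 1020 down) with only the 6 libraries compared and 2144 (876 down) with the 12 input libraries, against 1376 with all 24. Leaving out 1 library gave 774 to 922 calls, 495 to 598 up and 211 to 354 down. Bound RNAs called higher numbered 738 with the 6 and 672 with the 12 libraries, and 238 to 311 with a library left out; those called lower numbered 313, 282 and 43 to 78. List genes called were 156 and 147 with 6 and 12 libraries, against 95. The causes of these differences were not tested, except that leaving out a library leaves fewer samples. The bound median of 0.043 became 0.006 with library size alone, 0.059 for RNAs bound at least 2-fold, 0.067 for RNAs bound in experiment 2 and 0.027 against untagged input. The share of bound RNAs called higher, 8.29%, became 10% with binding from experiment 2, which shares the tagged input libraries, 12.7% against untagged input, and 1.3%, 3.19%, 6.74%, 10.6% and 13.8% in the 5 bins of abundance. RLE scaling (1331), no filter (1321) and DESeq2 (1539) stayed within 1.5 times of 1376, as did the replicate block (1672 calls). Whether the replicate numbers of that block mark pairs was not settled. Of 115 called named or list genes, 72 kept their call in all 6 fits that left out a library and 101 in all 7 other settings, and 0 changed direction. At this depth the simulated 1.5-fold changes were recovered in 83 of 100 genes with a mean of at least 2 log2 CPM. Smaller changes, and changes in genes below that level, can go uncalled. Seed matches could not be run without a genome.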

Other observations

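X-linked genes stood slightly higher in Ago2KO cells as a class, a pattern singled out after its values were seen. Of 411 X-linked genes with a mean of at least 2 log2 CPM, 11.9% were called higher and 2.43% lower, with a median log2 change of 0.079. The 11505 autosomal genes at that level had 6.21% higher, 3.31% lower and a median of 0.015, and the medians of single autosomes ran from -0.004 to 0.04. Per library, the X median less the autosomal median was -0.004, -0.016 and 0.018 in tagged and 0.054, 0.059 and 0.063 in Ago2KO cells on the log2 scale, so the groups did not overlap. Of the X-linked genes 19% and of the autosomal genes 20.9% were bound at least 2-fold, and the 333 X-linked genes outside that class had a median of 0.064 against 0.006 for such autosomal genes.

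Within the X chromosome, genes of the Xlr family, which encode chromatin-linked proteins of germ cells and lymphocytes, ran the other way. Of 11 tested, 6 were called lower by edgeR, and the median log2 change was -0.96. Xlr3a went from 29.8, 29.3 and 30.4 to 13.2, 12.4 and 17.4 CPM (log2 change -1.06, edgeR adjusted p = 6.73e-07) and Xlr3b from 16.2, 16.4 and 15.2 to 7.74, 7.38 and 9.49 CPM (log2 change -0.96, edgeR adjusted p = 6.39e-06). Xlr genes are near-identical copies, so the split of reads among them is uncertain. Against untagged cells Xlr3a was still lower (log2 difference -0.38, edgeR adjusted p = 0.0267). Xlr3b, at 9, 7.82 and 8.63 CPM in untagged cells, did not pass the test (log2 difference -0.05, edgeR adjusted p = 0.855).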
